A study of Homo sapiens with 30 samples.

Results

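G401 is a malignant rhabdoid tumour cell line without SNF5 (SMARCB1), a core subunit of the SWI/SNF chromatin remodeller. ATAC-Seq, which cuts accessible DNA with a transposase, was run on G401 cells carrying a lentiviral, TET-inducible EGFP, SNF5 or OMOMYC (OmoMYC, a dominant-negative form of MYC), in 3 samples per construct. All 9 samples were G418-selected and received 1 µg/ml doxycycline for 24 h, so the EGFP control shared the drug, the vector and the selection. Merging peaks of the 9 samples wherever they shared 1 bp or more gave 40005 open sites (hg38). The sites described here are those with a peak in 3 of 3 SNF5 samples, 0 of 3 EGFP samples and 0 of 3 OMOMYC samples. There were 2310 of these SNF5-only sites, 5.77% of all sites. The sites were chosen by the presence and absence of peaks, so their openness with SNF5 is not a result. A missing peak is a signal under the caller's threshold and does not show that the DNA was closed.

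SWI/SNF uses the energy of ATP to slide or evict nucleosomes, and much of its binding lies at enhancers, which are stretches of DNA away from genes that raise transcription of a gene elsewhere on the chromosome. Such elements are opened together with sequence-specific factors, among them AP-1 (dimers of JUN and FOS proteins) and the TEAD factors, which recruit the coactivator YAP. OmoMYC pairs with MYC and its partner MAX and keeps MYC from its E-box sites, so the OMOMYC samples show what loss of MYC function does without SNF5.

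Sequence of the files' build was at hand only near transcript starts, as 300-base promoter windows from RefSeq (GRCh38.p14). A summit of 98 SNF5-only sites lay in 110 such windows. Shown are protein-coding promoters that hold AP-1 letters (TGACTCA or TGAGTCA) or TEAD letters (GGAATG or CATTCC), marked by capitals, since the share of windows with these letters is compared with other open promoters further on. Each stretch has 240 bases and ends 11 bases before the start, on the strand of the gene. These 7 were printed of the 12 that qualified.

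The windows with AP-1 letters belong to KCNMA1, a calcium-activated potassium channel (chr10:77350772-77351011, minus strand), SPATA12 (chr3:57060414-57060653, plus strand), LYPLAL1 (chr1:219174711-219174950, plus strand) and OSGIN1, an oxidative stress response gene (chr16:83952990-83953229, plus strand). KCNMA1 and SPATA12 each hold the letters in 2 places. Fold enrichments in SNF5 replicates 1 to 3 were 8.23, 8.30 and 6.82 at the KCNMA1 site, 5.34, 6.51 and 7.84 at SPATA12, 5.87, 6.93 and 5.67 at LYPLAL1 and 4.45, 5.74 and 5.05 at OSGIN1, with summits at −88, −105, −190 and 3 bases from the start.
KCNMA1: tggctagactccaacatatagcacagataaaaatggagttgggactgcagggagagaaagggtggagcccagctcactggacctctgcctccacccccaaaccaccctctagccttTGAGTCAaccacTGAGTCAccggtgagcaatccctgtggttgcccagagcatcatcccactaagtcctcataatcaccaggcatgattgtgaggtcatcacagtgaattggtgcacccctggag
SPATA12: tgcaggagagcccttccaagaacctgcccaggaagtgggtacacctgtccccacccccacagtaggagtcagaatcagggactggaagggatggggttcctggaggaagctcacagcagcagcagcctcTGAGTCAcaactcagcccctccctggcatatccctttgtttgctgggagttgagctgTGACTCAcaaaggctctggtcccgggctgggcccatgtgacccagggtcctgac
LYPLAL1: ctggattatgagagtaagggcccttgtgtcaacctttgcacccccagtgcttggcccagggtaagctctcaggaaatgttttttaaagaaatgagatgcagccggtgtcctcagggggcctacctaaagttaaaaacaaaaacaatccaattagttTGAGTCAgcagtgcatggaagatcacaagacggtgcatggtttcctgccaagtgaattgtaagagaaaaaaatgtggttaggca
OSGIN1: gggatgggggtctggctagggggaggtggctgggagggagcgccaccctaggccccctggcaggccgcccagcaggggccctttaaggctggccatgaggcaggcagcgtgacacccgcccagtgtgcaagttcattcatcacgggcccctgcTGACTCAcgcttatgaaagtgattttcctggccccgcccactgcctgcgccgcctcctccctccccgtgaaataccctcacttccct

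The windows with TEAD letters belong to ANKRD1, a muscle ankyrin protein and a standard YAP and TEAD target (chr10:90921098-90921337, minus strand), and to the zinc finger genes ZNF66 (chr19:20776054-20776293, plus strand) and ZNF530 (chr19:57599635-57599874, plus strand). In ANKRD1 the letters occur in 2 places. Fold enrichments were 7.18, 8.72 and 8.53 at ANKRD1, 9.25, 9.88 and 8.45 at ZNF66 and 4.78, 6.81 and 6.21 at ZNF530, with summits at −239, −39 and −76 bases from the start.
ANKRD1: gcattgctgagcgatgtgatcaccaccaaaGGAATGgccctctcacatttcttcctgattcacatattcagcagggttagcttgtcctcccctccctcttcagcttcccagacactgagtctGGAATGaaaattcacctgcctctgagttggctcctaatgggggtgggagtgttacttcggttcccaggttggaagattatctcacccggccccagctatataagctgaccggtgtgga
ZNF66: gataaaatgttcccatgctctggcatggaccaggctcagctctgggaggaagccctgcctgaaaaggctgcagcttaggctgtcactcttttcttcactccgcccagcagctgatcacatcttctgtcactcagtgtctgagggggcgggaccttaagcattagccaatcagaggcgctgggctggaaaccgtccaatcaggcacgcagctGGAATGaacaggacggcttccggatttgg
ZNF530: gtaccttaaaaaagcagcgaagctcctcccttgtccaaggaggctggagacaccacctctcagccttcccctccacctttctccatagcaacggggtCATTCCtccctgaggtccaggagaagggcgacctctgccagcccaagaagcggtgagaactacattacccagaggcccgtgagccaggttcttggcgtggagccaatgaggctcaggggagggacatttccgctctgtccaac

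The peak caller gave each peak a fold enrichment over the local background and a −log10 q. The fold enrichment of the SNF5-only sites ran from 2.54 to 12 in SNF5 replicate 1 with a median of 5.75, from 3.04 to 13.3 in replicate 2 with a median of 6.48, and from 3.33 to 12.1 in replicate 3 with a median of 6.21. These medians lie close to those over all peaks of the same samples, 5.69, 6.45 and 6.48. Sites with a peak in all 9 samples were higher, at medians of 8.02, 8.74 and 8.41. They were also broader, with median widths of 608, 520 and 464 bp against 266, 237 and 216 bp for the SNF5-only sites. The median −log10 q of the SNF5-only sites was 10.8, 9.95 and 8.97, and the q of 507 sites (21.9%) was at least 10 on this scale in all 3 samples.

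**Figure D1:**
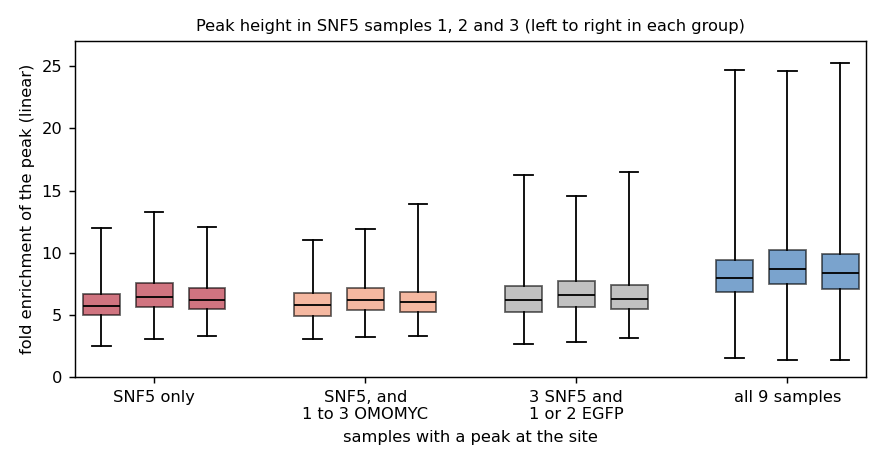
Fold enrichment of peaks (linear axis) in SNF5 replicates 1, 2 and 3 for SNF5-only sites, sites gained with SNF5 that also had a peak in 1 to 3 OMOMYC samples, sites with 3 SNF5 and 1 or 2 EGFP samples, and sites open in all 9 samples. Lines are medians, boxes quartiles and whiskers the lowest and highest value, and the SNF5-only medians (5.75, 6.48 and 6.21) sit below those of sites open in all 9 samples (8.02, 8.74 and 8.41).

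The summits of a site lay some way apart in the SNF5 replicates. The median distance between the outermost of the 3 summits was 67 bp, with quartiles of 39 and 105 bp and a highest value of 570 bp, and 814 sites (35.2%) had all summits within 50 bp. The SD of the fold enrichment over the 3 samples had a median of 0.778. Over the 2310 sites the fold enrichment correlated between SNF5 replicates at r = 0.604, 0.556 and 0.551, which is a description across sites that share their libraries.

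The sites just outside the rule were lower by the medians of their SNF5 peaks. A further 1057 sites had 3 SNF5 peaks and 1 OMOMYC peak, which lay in OMOMYC replicate 2 at 1023 of them, and that OMOMYC peak had a median fold enrichment of 5.8 beside 5.94 in the SNF5 samples and 6.14 at the SNF5-only sites. Another 227 sites had 3 SNF5 peaks and 1 EGFP peak, at 178 of them in EGFP replicate 2, with median fold enrichments of 5.76 with SNF5 and 5.31 with EGFP. At 3532 sites 1 of the 3 SNF5 peaks was missing, and 2207 of these lacked the peak of SNF5 replicate 3. The median fold enrichment of this class was 5.42, and its median −log10 q was 7.76, beside 9.82 at the SNF5-only sites. No site had the reverse patterns, 3 of 3 peaks with EGFP alone or 3 of 3 with OMOMYC alone (0 sites each). The number of peaks differed between libraries in the same direction as the rule, from 22722 to 33596 with SNF5, from 9208 to 17817 with EGFP and from 7260 to 23684 with OMOMYC. The read depth is not in the peak lists. When the 7260 peaks with the highest ranks were taken from every sample, 128 sites met the rule. Without OMOMYC replicate 2, 3335 sites met it, and without SNF5 replicate 3, 4520 did.

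The single highest SNF5-only site lay in an intron of ASB5, a substrate adaptor of a ubiquitin ligase, 1.6 kb from its start (chr4:176270698-176271002). Its fold enrichment was 12, 12.4 and 11.6 in SNF5 replicates 1 to 3, and was even across them (12 ± 0.413, SD, n = 3). Next came a site between genes, 95.6 kb from C17orf67 (chr17:56699452-56699853), at 10.8, 10.8 and 11.3. A site in an intron reached 9.72, 12.1 and 10.0 (chr7:83468309-83468660). It lay 6.32 kb from the nearest annotated start of SEMA3E, a secreted guidance protein, and far from its RefSeq promoter window (chr7:83649140-83649389). The site at chr4:74682699-74683081 lay 87.3 kb from BTC, which encodes the EGF receptor ligand betacellulin, and reached 8.57, 11.6 and 11.8. On chromosome 6 a site 27 bp from the start of the noncoding LINC01013 was 181 kb from CCN2, a matricellular YAP target, and reached 8.06, 12.2 and 11.4 (chr6:132131772-132132190). The other 5 of the top 10 were nearest to the protein-coding genes BARD1, SPAG16, MTCL1, TMEM19 and IMMP2L, at 13 to 576 kb.

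Most SNF5-only sites were TSS-distal. Distances ran from the summit to the nearest of the transcript starts of any gene type in GENCODE. Of the 2310 sites, 1608 (69.6%, exact 95% interval 67.7 to 71.5%, counting error only) lay at least 5 kb from a start, and 333 (14.4%) lay within 1 kb. The median distance was 12698 bp. It was 6516 bp for sites gained with SNF5 that also had an OMOMYC peak, 1627 bp for sites with 3 SNF5 and 1 or 2 EGFP peaks, and 66 bp for sites open in all 9 samples, of which 91.4% lay within 1 kb of a start. The share at least 5 kb away was 53.6%, 41.7% and 6.18% in these 3 classes.

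**Figure D2:**
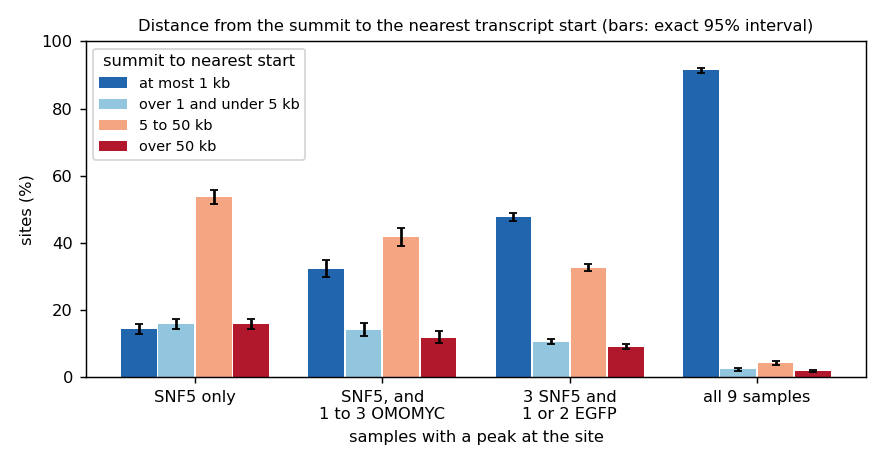
Share of sites (%) by distance from the summit to the nearest transcript start, for SNF5-only sites and the 3 comparison classes, with exact 95% intervals as bars. The 5 to 50 kb class held 53.6% of the SNF5-only sites, while 91.4% of the sites open in all 9 samples lay within 1 kb.

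The comparison was repeated inside each SNF5 library, as a description and not a test, since the same sites were read in all 3. In SNF5 replicates 1 to 3, 69.4, 69.6 and 69.8% of the peaks at SNF5-only sites lay at least 5 kb from a start, beside 41.9, 37.1 and 35.0% of the other peaks of the same sample. With starts of protein-coding genes alone the share of sites at least 5 kb away was 80.2%. With starts of any gene type it was 60% without replicate 2 of all constructs, beside 69.6% with all samples.

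Introns of protein-coding genes held 830 of the sites (35.9%), introns of other genes 325 (14.1%) and the space between genes 751 (32.5%). Exons away from a start held few, 10 sites (0.433%) in coding exons and 61 (2.64%) in other exons. By chromosome, the share of open sites that were SNF5-only ran from 1.12% on chromosome 22 (5 of 448) and 2.05% on chromosome 19 (25 of 1220) to 7.93% on chromosome 3 (219 of 2763). Most sites stood alone. With summits at most 50 kb apart taken as 1 group, 1904 sites had no SNF5-only neighbour, and 164 groups held 2 sites, 19 held 3 and 4 held 4. The single group of 5 spanned 159067 bp between TMC1 and ZFAND5 (chr9:72433918-72592984).

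A site was assigned to the protein-coding gene with the nearest start, up to 100 kb away. This placed 1754 sites (75.9%) at 1455 genes, 7.33% of the 19856 protein-coding genes. Of these genes 1215 had 1 site, 194 had 2 and 46 had 3 or more. The nearest gene need not be the gene a site acts on.

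Transcription of these genes was measured by PRO-Seq, which maps engaged RNA polymerase, in 3 separate samples per construct. Reads in the gene body were tested across all genes with edgeR's quasi-likelihood test, with the replicate number as a block. These data were not used to choose the sites. In bulk samples, fewer transcribing cells and less transcription per cell cannot be told apart. SMARCB1, the gene that was put back, had depth-scaled gene body counts of 1.28 to 6.45 in the 6 EGFP and OMOMYC samples and of 2698, 4760 and 2934 in the SNF5 samples, reads of the transgene included. No PRO-Seq label went against this gene. MYC itself was at −0.46 with SNF5 (log2, adjusted p = 0.14) and rose by 0.96 with OMOMYC (adjusted p = 0.0378, which may include reads of the construct). Gene body totals were 28388012 to 46859674 reads per sample. Replicate 3 of every construct stood apart from replicates 1 and 2: 77 of 14740 genes were over 10-fold lower in all its samples, 20 of them among the 1256 tested genes with an SNF5-only site. Another 30 genes were over 10-fold higher in all its samples, 2 of them among the 1256.

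Genes near SNF5-only sites were more often transcribed higher with SNF5 than genes at large. Of the 1455 genes, 1416 were in the PRO-Seq table and 1256 passed the filter on low counts. Against EGFP, 533 of the 1256 (42.4%) rose with SNF5, where 17.6% of all genes tested rose. Falls were called for 75 (5.97%), where 16.5% of all genes fell. The remaining 648 passed the test in neither direction. The median log2 change of these genes was 0.24, beside −0.03 over all genes. Without the replicate block the counts were 70 (5.57%, all genes 1.45%) and 0 (edgeR, 19 at an unadjusted p under 0.05). Leaving out replicate 1, 2 or 3 of all constructs gave 317, 294 and 681 rises (25.2, 23.4 and 54.2% of the genes), where all genes gave 8.04, 7.57 and 25.4%. Falls were called for 12, 11 and 228 genes, and the 228 (18.2%) stood beside 31.1% of all genes (2.77 and 2.12% without replicate 1 or 2). The all-gene shares of these alternatives are over the 14740 genes matched to the annotation.

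OMOMYC moved fewer of the same set. Against the same EGFP samples, 88 genes (7.01%, all genes 4.1%) rose with OMOMYC and 39 (3.11%, all genes 4.42%) fell, with a median of 0.05. Both contrasts share the EGFP samples. The difference between SNF5 and OMOMYC was tested directly, and 402 genes (32.0%, all genes 11.5%) were higher with SNF5 and 50 (3.98%, all genes 7.38%) lower, with a median of 0.19. The OMOMYC counts depended on replicate 3: 368 genes rose (29.3%, all genes 20.3%) and 282 fell (22.5%, all genes 24.6%) without it. Without replicate 1 or without replicate 2 the counts were 1 and 0 (0.0796 and 0%). All 14740 genes gave 2 and 0 there (0.0136 and 0%), so the calls were lost over the whole fit. The 0 near the sites comes from edgeR, with 46 and 38 genes at an unadjusted p under 0.05, and DESeq2 on all samples called 74.

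Replicate by replicate, the median log2 ratio of SNF5 to EGFP over the 1256 genes was 0.22, 0.23 and 0.24, and 70.5, 68.6 and 69.3% of the genes lay above 0. All genes had medians of −0.02, −0.04 and −0.02. For OMOMYC over EGFP the medians were 0.07, 0.04 and 0.04.

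**Figure D3:**
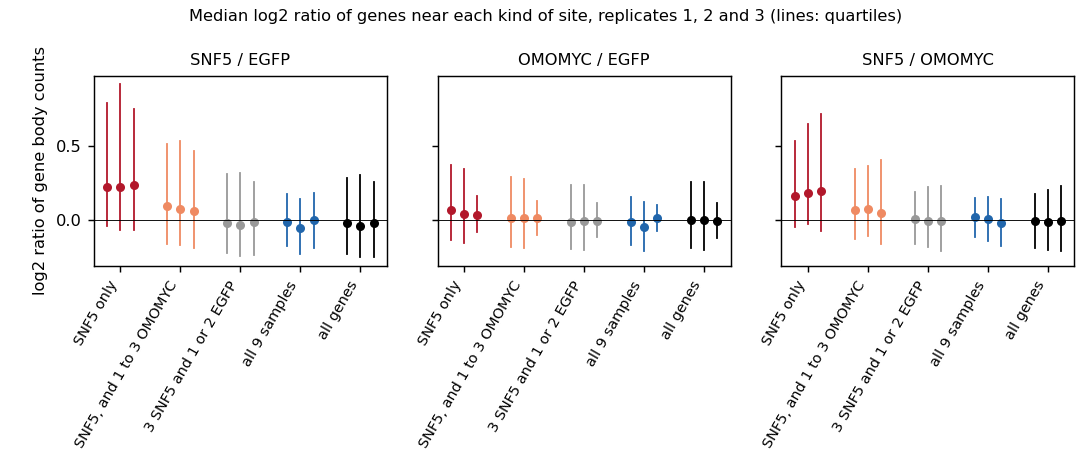
Median log2 ratio of gene body counts (points) with quartiles (lines) in replicates 1, 2 and 3, for genes near each class of site and for all genes tested, in the 3 contrasts. Genes near SNF5-only sites sit at 0.22 to 0.24 for SNF5 over EGFP, above the all-gene medians of −0.04 to −0.02.

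Other classes of open site were nearer to the background. Genes near sites gained with SNF5 that also had an OMOMYC peak rose in 27.9% and fell in 13.3% of 815 tested. The shares were 20.1 and 18.0% of 3801 genes for sites with 1 or 2 EGFP peaks, and 16.4 and 16.9% of 4473 genes for sites open in all 9 samples. These sets share genes. Of the 365 tested genes with an SNF5-only site and none of the 3 other kinds of site within 100 kb, 176 (48.2%) rose and 15 (4.11%) fell, with a median of 0.45.

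By distance, genes whose nearest SNF5-only site lay within 1 kb rose in 38.9% of 208, within 10 kb in 42.7% of 555, from 10 to 50 kb in 42.8% of 502 and from 50 to 100 kb in 40.7% of 199. By number of sites, it was 40.3% of 1030 genes with 1 site, 51.9% of 181 with 2 and 24 of 45 (53.3%) with 3 or more, where the median was 0.53.

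Gene length moved with the result. Genes near SNF5-only sites had a median length of 88.6 kb, beside 30.7 kb over all genes tested, and longer genes rose more often in general. With all genes split into 4 equal bins by length, 18.6% of the 102 genes with an SNF5-only site in the shortest bin (up to 12.3 kb) rose, beside 4.16% of the other genes. In the following bins the shares were 26.6 and 9.85% (up to 30.7 kb), 43.4 and 16.9% (up to 76.7 kb), and 49.5 and 32.8% (longer genes).

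In the promoter-proximal window, where paused polymerase sits, 841 of the genes could be tested. Replicate 1 was shallow in this window, with 517821 reads for EGFP, 671718 for OMOMYC and 660342 for SNF5. The other samples held 2024662 to 3381189. With SNF5, 61 (7.25%, all genes 2.64%) rose and 17 (2.02%, all genes 1.63%) fell. With OMOMYC, 24 (2.85%, all genes 1.63%) rose and 1 (0.119%, all genes 0.169%) fell, SHQ1, a ribonucleoprotein assembly factor. SNF5 against OMOMYC gave 16 higher (1.9%, all genes 0.48%) and 4 lower (0.476%, all genes 0.347%), CDON, IL23R, NEK10 and URB2, which like SHQ1 are named after their values were seen. IL23R, an interleukin receptor, had depth-scaled promoter-proximal counts of 2.19, 1.28 and 0.82 with EGFP, 75.8, 110 and 32.6 with OMOMYC, and 9.4, 10.7 and 4.26 with SNF5, so that OMOMYC stood highest. The window was scaled by the gene body reads, and the median change over all genes in it was −0.05 with SNF5 and 0.13 with OMOMYC. Without the replicate block none of these 6 counts held a gene (0 in edgeR, with 0 to 11 at an unadjusted p under 0.05).

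Of the 533 genes called higher with SNF5, 289 had depth-scaled counts above all 3 EGFP samples in every SNF5 sample. Of these 289, 200 also lay above all 3 OMOMYC samples, and 177 rose by over 2-fold. Of the 75 called lower, 19 lay below all 3 EGFP samples, and none changed by over 2-fold (0 of these 19). The same counts were not made over all genes tested, so they do not set genes near the sites apart. The 10 largest rises and 5 largest falls described next were taken from these genes without overlap, so their separation from the EGFP samples was part of the choice. Of the 244 rises with overlap 71 were over 2-fold, and 1 was larger than the smallest of the 10.

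Most of these rises were in genes with few reads in the EGFP samples. TLR4, the receptor for bacterial lipopolysaccharide, had depth-scaled gene body counts of 0, 2.56 and 0.82 with EGFP, 1.1, 0 and 2.45 with OMOMYC, and 90.2, 116 and 106 with SNF5. The SNF5 and EGFP libraries held 329 and 3 reads, a ratio of 100 with a counting interval of 34.0 to 489.0 (log2 change 6.50 ± 0.575, SE, edgeR adjusted p = 0.000116). The bradykinin receptor BDKRB1 had 0, 0 and 0.82 with EGFP, 0, 3.87 and 1.63 with OMOMYC, and 30.1, 58.6 and 35.8 with SNF5. Its 129 and 1 reads give a ratio of 118 with an interval of 20.8 to 4700. In both genes the OMOMYC samples held at most 3.87 depth-scaled counts. The filter on low counts used the mean over all 9 samples, which both genes passed only through their SNF5 samples. The same holds for genes such as ACSM5, C3orf52, IGF1 and ASB5 further on. Such genes entered the test because they were high with SNF5, and could only be called as rises.

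IL18, an inflammatory cytokine, had 6.58, 7.67 and 9.85 with EGFP, 30.8, 32.3 and 6.52 with OMOMYC, and 568, 649 and 87.8 with SNF5 (log2 change 5.35 ± 0.499, adjusted p = 0.000154). GUCY2C, the receptor guanylate cyclase of gut epithelium, had 3.29, 12.8 and 6.56 with EGFP, 6.59, 7.74 and 10.6 with OMOMYC, and 140, 278 and 370 with SNF5 (5.16 ± 0.316, adjusted p = 2.3e-05). FILIP1L, a filamin-interacting protein, started from a higher level, with 305, 285 and 44.3 with EGFP, 312, 332 and 39.1 with OMOMYC, and 8010, 9071 and 2528 with SNF5 (5.10 ± 0.219, adjusted p = 4.86e-06). In FILIP1L and IL18 the SNF5 samples of replicate 3 were the lowest of their group and still above all EGFP and OMOMYC samples. FILIP1L also rose in the promoter-proximal window (3.72 ± 0.275, adjusted p = 5.21e-12).

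The remaining 5 of the 10 largest rises were SH3TC2, ADAM19, ACSM5, HSPB8 and C3orf52, at log2 changes of 4.79 to 5.05. The metalloprotease ADAM19, with a summit 141 bp from its start, had 15.3, 19.2 and 10.7 with EGFP, 33.0, 59.4 and 6.52 with OMOMYC, and 508, 481 and 376 with SNF5. The small heat shock protein HSPB8 had 9.86, 24.3 and 3.28 with EGFP, 17.6, 46.5 and 5.71 with OMOMYC, and 250, 327 and 339 with SNF5, and rose in the promoter-proximal window too (6.43 ± 0.563, adjusted p = 2.99e-10). In all 10 genes the SNF5 samples also lay above the 3 OMOMYC samples, which the choice did not use.

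The falls without overlap were small. Of the 56 falls with overlap, 13 were larger than any of them, among them OSGIN1, and the largest was NXPH2 at −1.35, named after its value was seen. NHP2, a protein of H/ACA ribonucleoproteins, had 1147, 1229 and 1031 with EGFP, 790, 686 and 836 with OMOMYC, and 815, 764 and 774 with SNF5. It fell by 0.53 with SNF5 (log2, SE 0.102, adjusted p = 0.00487) and by 0.56 with OMOMYC (adjusted p = 0.0258). UTP25, a ribosome biogenesis factor, had 5710, 6353 and 5349 with EGFP, 5875, 5983 and 6584 with OMOMYC, and 4239, 4585 and 4440 with SNF5, and fell by 0.39 with SNF5 (adjusted p = 0.00396), with OMOMYC at 0.09 (adjusted p = 0.465). PEX11G, GPCPD1 and ABCB9 fell by 0.50, 0.42 and 0.41. The PEX11G call (adjusted p = 0.0482) was lost with DESeq2 and without any 1 replicate. The calls of NHP2, UTP25, GPCPD1 and ABCB9 were lost too without replicate 1, without replicate 2 and without the replicate block. The GPCPD1 call was also lost with the compared samples alone.

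**Figure D4:**
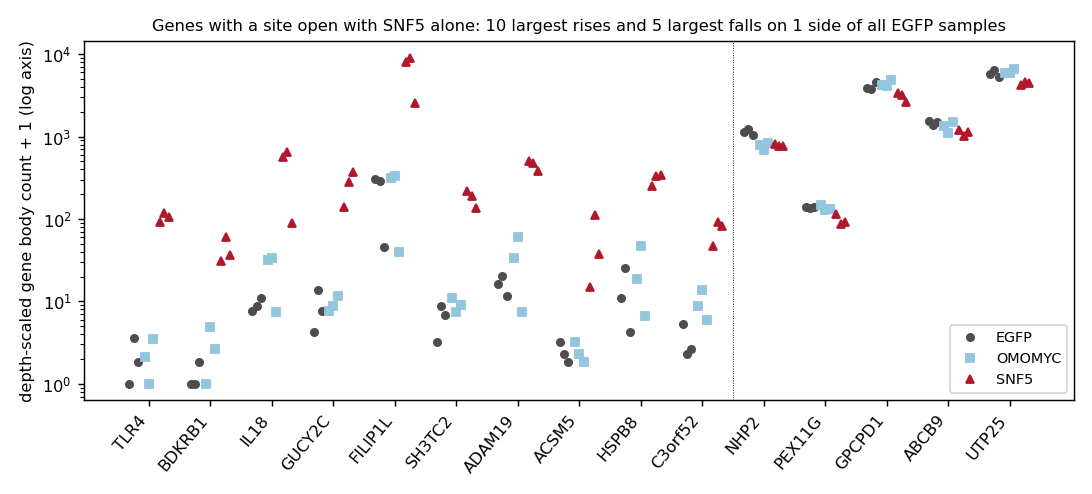
Depth-scaled gene body counts plus 1 (log axis) in each EGFP, OMOMYC and SNF5 sample for the 10 largest rises and the 5 largest falls among genes near SNF5-only sites that were chosen to lie on 1 side of all EGFP samples, with replicates 1, 2 and 3 from left to right. In all 10 rises the SNF5 samples also lie above the 3 OMOMYC samples, as for TLR4 at 90.2, 116 and 106 against at most 2.45, while falls such as NHP2 stay within a 2-fold change.

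Not every gene with many sites rose, though the share that rose was larger with 3 or more sites (53.3%) than with 1 (40.3%). ASTN2, a neuronal migration gene with 5 sites 33.3 to 92.5 kb from its start, had 8887, 10050 and 9065 with EGFP, 9500, 10535 and 9394 with OMOMYC, and 6814, 8483 and 7129 with SNF5, and fell by 0.32 (adjusted p = 0.00211). PRKCH, a protein kinase C with 5 sites, had 280, 794 and 11.5 with EGFP and 447, 1175 and 149 with SNF5 (1.25 ± 0.464, adjusted p = 0.0644). The groups did not overlap in ASTN2 and overlapped in PRKCH, where replicate 3 was far below the others in all constructs. SEMA3E, with 4 sites, rose from 235, 295 and 238 with EGFP to 638, 830 and 438 with SNF5 (1.26 ± 0.148, adjusted p = 0.000465), with 466, 507 and 296 in the OMOMYC samples.

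PLXNA2, a semaphorin receptor with 4 sites, had 3384, 3047 and 517 with EGFP, 2547, 2489 and 439 with OMOMYC, and 6790, 6810 and 1678 with SNF5 (1.28 ± 0.118, adjusted p = 0.000146). Growth factor IGF1, with 4 sites 58.3 to 89.1 kb away, had 1.1, 1.28 and 3.28 with EGFP, 2.2, 3.87 and 0 with OMOMYC, and 26.3, 107 and 11.1 with SNF5 (4.05 ± 0.731, adjusted p = 0.00375, from 6 reads in all EGFP samples). Utrophin (UTRN), a link between actin and the cell membrane, rose by 1.44, the mitochondrial malic enzyme ME3 by 0.79 and MTCL1, a microtubule protein, by 1.05. NPFFR2, RAP2B and TMC1 rose as well, while SLC39A10, PLEKHM3, RB1CC1 and P3H2 were at 0.03 to 0.14 and did not pass the test. Among these 15 genes with most sites, 9 rose, 1 fell and 5 did not pass.

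At the genes of the printed promoters, ANKRD1 rose by 2.72 and LYPLAL1 by 0.20 (adjusted p = 0.0331), OSGIN1 fell by 0.56 (adjusted p = 0.00112), and KCNMA1 (0.07), SPATA12 (1.42, adjusted p = 0.0699) and ZNF530 (−0.03) did not pass. Of the genes nearest to the highest sites, ASB5 rose by 2.35 from very low counts (10 reads in all EGFP samples, adjusted p = 0.0129). CCN2 rose by 0.72 (adjusted p = 0.000247), with counts of 2571, 3669 and 3604 with EGFP and 4086, 5597 and 6717 with SNF5. IMMP2L rose by 0.22 (adjusted p = 0.0483), a call lost with TMM and without replicate 1 or replicate 2. The highest sites of CCN2, IMMP2L, BARD1 and SPAG16 lay 181, 576, 137 and 146 kb away, beyond the 100 kb limit for assigning a site. CCN2 had no site within that limit. C17orf67, BARD1, SPAG16 and TMEM19 were at −0.01 to 0.20 and did not pass. BTC had at most 1.07 depth-scaled counts in any sample and was not tested.

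Lists of genes by function were compared by count alone, beside 7.33% of protein-coding genes with an SNF5-only site. Rises among the listed genes with a site stand beside 42.4% of all 1256 tested genes near such sites. Rises over a whole list stand beside 17.6% of all genes. Several lists hold few genes with a site, and no list was tested against these shares. Beyond the 4 genes with most sites, genes of a list are named after their values were seen. Of 20 TEAD and YAP genes, 8 (40.0%) had a site, and of these 4 rose and 0 fell: ANKRD1 (2.72 ± 0.19, adjusted p = 3.89e-05), the LIM protein AJUBA (0.73), TEAD1 (0.31) and the TEAD cofactor VGLL4 (0.20). YAP1 (0.04), AMOTL1 (0.39), F3 (0.51) and TGFB2 (−0.18) did not pass. ANKRD1 counts were 175, 173 and 32.0 with EGFP, 223, 261 and 32.6 with OMOMYC, and 1338, 1358 and 122 with SNF5, higher in each replicate with SNF5. The list also holds genes without a site, and over its 19 tested genes 7 rose and 2 fell.

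Of 22 AP-1, ATF and small MAF genes, 3 (13.6%) had a site. JUN, an AP-1 subunit, has sites 28.3 and 65.0 kb from its start and rose from 121, 173 and 156 with EGFP to 448, 559 and 353 with SNF5 (1.60 ± 0.189, adjusted p = 0.000503), with 164, 210 and 238 with OMOMYC. JDP2, which represses AP-1, rose by 0.29, and BACH2, with 3 sites, was at −0.25 (adjusted p = 0.0757). Over the 20 tested genes of the list 5 rose and 5 fell.

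Of 39 genes of the TGF-beta and BMP pathway, 11 (28.2%) had a site and 6 of these rose: the receptors TGFBR1 (0.41), TGFBR2 (4.17 ± 0.582, adjusted p = 0.00114) and ACVR1 (0.29), the signal transducers SMAD1 (0.52) and SMAD2 (0.42), and the inhibitor SMAD7 (0.45). The ligands TGFB2 and BMP7, the co-receptor TGFBR3, LTBP1 and TGIF1 did not pass, and 0 fell. Over the 36 tested genes of the list, with or without a site, 12 rose and 5 fell.

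The extracellular matrix list held 52 genes, 9 (17.3%) with a site, of which 7 of the 8 tested rose. The collagens COL4A2, COL4A6, COL8A1 and COL12A1 rose by 1.81, 2.02, 1.33 and 1.91, laminin LAMA2 by 1.2, fibrillin FBN1 by 1.46 and SPARC, a collagen-binding protein with 3 sites, by 1.41. SPARC counts were 1478, 1464 and 5369 with EGFP and 5064, 4689 and 9035 with SNF5, with replicate 3 the highest in both groups. The cross-linking enzyme LOXL2 (−0.10) did not pass. Over the whole list 26 of 44 tested genes rose and 0 fell, so the rise was not limited to genes with a site.

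Of 38 actin and contractile genes, 6 (15.8%) had a site and 5 of these rose, among them LPP by 0.41, myosin light chain kinase MYLK (3.27 ± 0.154, adjusted p = 7.65e-06), the actin cross-linker PALLD (2.74) and LMOD1, which nucleates actin in smooth muscle (1.61). MYLK counts were 61.4, 118 and 59.9 with EGFP, 109, 206 and 75.8 with OMOMYC, and 547, 1191 and 587 with SNF5. MYLK, PALLD and LMOD1 rose with OMOMYC too, by 0.67, 1.16 and 0.83. TNS3 (−0.05) did not pass. Over the whole list 16 of 35 tested genes rose and 1 fell, so here too genes without a site rose.

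Of 37 guidance genes, 8 (21.6%) had a site and 4 rose (SEMA3C, SEMA3E, PLXNA2 and EFNA5, by 0.39 to 1.28), while NRP1, NRP2, PLXNA4 and SLIT3 did not pass. Over the whole guidance list 16 of 35 tested genes rose and 2 fell. Among 38 receptor tyrosine kinases 9 (23.7%) had a site and 3 rose, ROR1 by 2.56, the hepatocyte growth factor receptor MET by 1.43 and PDGFRA by 0.62, while EGFR, ERBB4, FGFR1, IGF1R, RYK and EPHA2 did not pass. MET rose with OMOMYC as well (1.01, adjusted p = 0.00663). Over the whole receptor list 10 of 35 tested genes rose and 6 fell. Of 20 ERK feedback genes 5 had a site and 2 rose, the phosphatase DUSP5 (1.14) and the transcription factor ETV1 (0.89), while SPRY4, ETV5 and EPHA2 did not pass. Among all 18 tested ERK feedback genes 4 rose and 3 fell. Of 29 kidney development factors 3 had a site, and PAX8 rose (1.99 ± 0.505, adjusted p = 0.0157) while TFAP2A did not pass. Among all 17 tested kidney factors 4 rose and 3 fell. None of the 3 tested integrin and cadherin genes with a site (ITGA1, ITGA4 and ITGB6) and none of the 3 SWI/SNF genes (SMARCA2, ARID1A and ARID1B) passed the edgeR test. Over their whole lists, 10 of 28 integrin and cadherin genes rose and 3 fell, and 2 of 26 SWI/SNF genes rose and 5 fell. No gene of the 76 cytosolic ribosomal proteins had a site (0 of 76), and over that list 0 of 66 tested genes rose and 20 fell.

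Zinc finger genes stood out among sites at promoters, a group chosen after its values were seen. Of 231 genes with an SNF5-only site within 1 kb of a start, 15 (6.49%) were named ZNF, beside 2.42% of the 4469 genes with a site open in all 9 samples and 2.58% of all protein-coding genes. Many of these genes encode sequence-specific repressors of transposons, and 12 of the 15 lie on chromosome 19, where 25 SNF5-only sites were found in all. The highest was at ZNF66, with fold enrichments of 9.25, 9.88 and 8.45, followed by ZNF45 with 8.61, 7.96 and 8.02. Gene body transcription of the group was nearly level: of 13 tested, ZNF83 rose (0.22, adjusted p = 0.0124), 0 fell in edgeR, and the median was −0.02. ZNF genes have near-identical copies, so their reads and peaks may be split between them.

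MYC binding at these genes was compared by gene, since MYC ChIP-Seq peaks are on hg19. Of 1416 genes near SNF5-only sites, 262 (18.5%, exact 95% interval 16.5 to 20.6%) had a MYC summit within 1 kb of a start in either EGFP sample, beside 23.6% of all 19710 genes and 45.8% of genes near sites open in all 9 samples. For genes with the SNF5-only site within 1 kb it was 28 of 226 (12.4%). All 262 calls stood in EGFP replicate 2, which had 5396 peaks where replicate 1 had 940 (44 of the genes). With SNF5, where the samples had 137 and 27 MYC peaks, 6 of the 1416 genes (0.424%) had a MYC summit, beside 0.665% of all 19710 genes. Genes near SNF5-only sites with a MYC peak in EGFP rose in 23.0% and fell in 13% of 261, where all genes with a MYC peak rose in 6.34% and fell in 29.3%. Without a MYC peak 47.5% of 995 rose and 4.12% fell, where all such genes rose in 22.4% and fell in 11.3%.

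In the promoter windows, letters of several factors were counted on both strands over the 300 bases. AP-1 letters were in 19 of the 110 windows at SNF5-only sites (17.3%, exact 95% interval 10.7 to 25.7%), in 1.79% of 4589 windows at sites open in all 9 samples and in 4.96% of all 34943 RefSeq windows. TEAD letters were in 24 windows (21.8%, 14.5 to 30.7%), beside 8.91 and 14.0%. The MYC E-box CACGTG was in 5 windows (4.55%), beside 11.0 and 7.23%, and the Sp/KLF letters GGGCGG in 57.3%, beside 80.1 and 44.9%. The median GC content was 62.2, 66.0 and 58.7% in these 3 sets of windows. The other letters follow for the same 3 sets in the same order. A second E-box (CAGCTG) was found in 24.5, 15.9 and 17.9% of windows. For the GATA letters AGATAA the shares were 10.9, 3.38 and 10.4%. For the homeobox letters TAATTA they were 2.73, 1.05 and 4.85%. The ETS letters CCGGAAG were found in 18.2, 23.8 and 10.2% of windows, so that SNF5-only sites lay between the other sets. The RUNX letters TGTGGTT stood at 4.55, 2.44 and 4.27%. The letters CCCCCTG, which are part of the CTCF motif, stood at 10.0, 10.3 and 8.44%. The CRE letters TGACGTCA were present in 4.55, 4.42 and 1.84% of windows. Forkhead letters (TGTTTAC) were present in 3.64, 1.87 and 3.42%. The CEBP palindrome TTGCGCAA and the related CEBP-ATF letters TTGCATCA together had 3.64, 0.654 and 1.02%. A window could hold several, and a match is a run of letters and not a bound site.

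**Figure D5:**
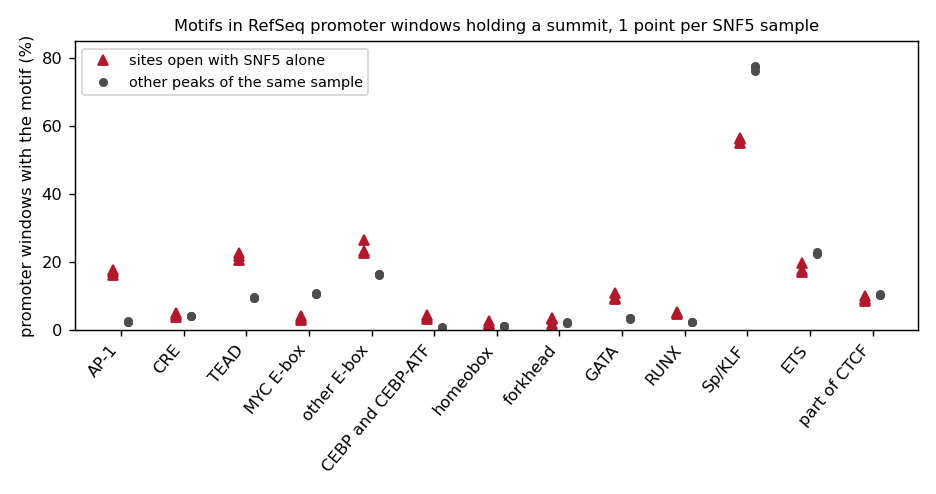
Share of promoter windows (%) with each motif, 1 point per SNF5 sample, for windows with a summit of an SNF5-only site (triangles) and of the other peaks of that sample (circles). The triangles of a motif read the same sites in 3 libraries and are no replicates of the share. AP-1 and TEAD letters average 16.9 and 21.7% at SNF5-only sites against 2.45 and 9.5% at other peaks, and Sp/KLF letters 56.0 against 77.1%.

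Taken sample by sample, AP-1 letters were in 17.0, 17.6 and 16.2% of windows at SNF5-only sites and in 2.58, 2.49 and 2.29% of windows at other peaks of SNF5 replicates 1 to 3. TEAD letters were in 21.7, 22.7 and 20.7%, beside 9.65, 9.47 and 9.39%, and the MYC E-box in 2.83, 4.2 and 3.6%, beside 10.6, 10.7 and 10.8%. The windows at SNF5-only sites are nearly the same in each sample, so these shares are given without a test. The intervals above cover counting error only. They treat the 110 windows as separate, although these come from 98 sites and some share a summit. The AP-1 share rests on few windows and on the choice of sites: without replicate 2 of all constructs, which left 6735 sites and 735 windows, it was 5.31%, and without replicate 1 or replicate 3 it was 14.0 and 13.8%.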

How the data were processed

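ATAC-Seq (3 samples per construct), PRO-Seq (3) and MYC ChIP-Seq (2) of G401 cells were used as deposited, without realignment. For ATAC-Seq the authors trimmed adapters with Cutadapt, used Bowtie2 against hg38, and ran MACS2 separately on every sample. No offset for the transposase is stated, so positions of summits are approximate. The deposited peak lists give a ratio (fold enrichment over local background), −log10 p and −log10 q, with the q threshold at 3 on that scale, and the summit's offset within the peak. They hold no reads. The study tabulates read numbers of the ATAC-Seq and ChIP-Seq libraries, which were not used here. For PRO-Seq the authors aligned reads to hg19 and ran NRSA to count them by transcript. Deposited were raw counts in a promoter-proximal window and in the gene body, with a density signal in reads per bp that was used here only for gene length. MYC peaks (hg19) with OMOMYC were not analysed here, since both lists hold 1 line that is named as fake in the file, nor were IgG samples.

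Peaks overlapping by 1 bp or more were merged. The summit of a site is that of its SNF5 peak with the highest fold enrichment. Transcript starts for distances were those of GENCODE release 44, at the GRCh38 positions which it lists. No coordinate was converted. Sequences are from RefSeq (GRCh38.p14), and intervals are exact binomial at 95%, for counting error only. For PRO-Seq, edgeR 4.0.16 in R 4.3.3 was fitted to the counts (quasi-likelihood test, all 9 samples, mean count of at least 10, 1 transcript per symbol), with library sizes from gene body counts scaled by RLE and Benjamini-Hochberg adjustment over all 15060 (gene body) or 11241 (promoter-proximal) genes, called at 0.05. The replicate number was a block, as the study's methods account for batch. Deviations from the construct mean correlated at 0.767 to 0.889 between samples of the same number and at −0.675 to 0.128 between others. Depth-scaled counts are reads divided by these library sizes. DESeq2 1.42.0, TMM, no filter, no block and left-out samples were alternatives. The code was tested on simulated data. The p-values measure the spread between samples that the study calls biological replicates. A planned exact permutation test of motif shares over the 3 SNF5 samples is not given, since these samples share the sites.

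The sites and gene lists were chosen with earlier results of these data known. Named are the 15 genes with most sites, the 10 highest sites, the 10 largest rises and 5 largest falls that lay on one side of all EGFP samples, the 4 genes of each list with most sites, and SMARCB1 and MYC.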

Additional observations from a re-analysis of the deposited data

How the results depend on the processing

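The number of SNF5-only sites depended on the libraries more than on the overlap rule. Matching by summits, 50% reciprocal overlap or a −log10 q of at least 5 kept it within 1.5 times. It was 128 with equal numbers of top peaks, 5842 with 2 of 3 SNF5 samples sufficing, 4520 without SNF5 replicate 3, and 2312 to 6735 over all left-out samples. The share at least 5 kb from a start was 80.2% with protein-coding starts, 73.4% with equal numbers of top peaks, 65.1% without OMOMYC replicate 2 (chosen after seeing the data) and 60 to 69.4% over left-out samples. The AP-1 share was 5.31 to 14.0% with a replicate number left out. The window of 250 bp around the summit was not run, since no promoter window was long enough.

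Gene body counts of genes near the sites kept their counts within 1.5 times with TMM, without the filter and at any distance. Without the replicate block, 70 rose and 0 fell with SNF5, 1 rose and 0 fell with OMOMYC, and 24 were higher and 1 lower with SNF5 than with OMOMYC, and all 6 promoter-proximal counts were 0. Within 10 kb these were 237, 33, 44, 17, 169 and 26. For sites from equal numbers of top peaks (83 genes tested, chosen after seeing the data) they were 40, 1, 4, 1, 32 and 1. For sites without OMOMYC replicate 2 (chosen likewise) the 3 counts of falls were 156, 66 and 92. With the 6 compared samples alone OMOMYC gave 151 and 71, and with DESeq2 147 and 74. With a replicate number left out, rises and falls ranged from 294 to 681 and from 11 to 228 with SNF5, from 1 to 368 and from 0 to 282 with OMOMYC, and from 184 to 624 and from 8 to 157 for SNF5 against OMOMYC. Over all 14740 genes OMOMYC gave 2 to 2992 rises and 0 to 3622 falls in the same settings. Smaller sets and fewer samples are part of these alternatives, and the other causes were not tested. None of the 47 called named genes changed direction (0 in any setting). Of 27 named genes that did not pass, 10 changed sign in at least 1 setting, among them F3 (0.51, and −0.04 without replicate 3) and EGFR (0.21, and −0.07 without replicate 3). Of the 47, 12 kept their call without the block, 29, 30 and 46 without replicate 1, 2 or 3, and 46 with DESeq2. The gene body reads limit genes near silence, where 3 or fewer EGFP reads leave wide intervals.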
